A study of Homo sapiens with 18 samples.

Results

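Cyclin-dependent kinase (CDK) inhibitors were followed as transcripts in cultured human cells before and after ionising radiation. They comprised the CIP/KIP family (CDKN1A, CDKN1B and CDKN1C) and the INK4 family (CDKN2A, CDKN2B, CDKN2C and CDKN2D). Members were the rows of the count tables whose gene symbol was one of these 7 names, 7 of the 40916 symbols listed. MCF10A is a non-transformed human mammary epithelial line, here expressing histone H2B fused to GFP. HCT116 is a line from a human colorectal carcinoma, grown here without a fluorescent label. The series text calls it p53-null, a status that was not tested here. Each line was grown alone, and both were also grown together from a stated 50-50 mixture. Cultures were either non-irradiated (NIR) or received 10 Gy (IR), with 3 biological replicates in each of the 6 groups and 18 libraries in all. The sample titles place all libraries at day 2, whereas the series text places the harvest at 72 h after irradiation. MCF10A medium held horse serum, EGF, hydrocortisone, cholera toxin and insulin, and HCT116 medium was McCoy's 5A with fetal bovine serum. Line and medium therefore cannot be told apart in comparisons of the monocultures, and both carried penicillin-streptomycin.

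CDK inhibitors are small proteins that hold back the kinases driving the cell cycle. CIP/KIP proteins bind cyclin-CDK complexes broadly, above all those of CDK2, whereas INK4 proteins bind CDK4 and CDK6 and keep them from D-type cyclins. Active CDK4, CDK6 and CDK2 phosphorylate the retinoblastoma protein RB and free E2F transcription factors, so inhibitors keep RB active and cells in G1. CDKN1A is the member best known from the DNA damage response, and CDKN2A is known for its accumulation in senescent cells. The CDKN2A gene encodes both p16, a CDK4 and CDK6 inhibitor, and ARF, which binds MDM2. Transcript levels do not report protein levels, which for CDKN1A and CDKN1B are known to be set largely by ubiquitin-dependent turnover.

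Libraries held between 25737818 and 40839835 counts, and levels are given as CPM, a gene's counts scaled to 1e+06 counts per library. The summed level of 10 basal mammary markers ran from 10603 to 11404 CPM in MCF10A NIR and from 17923 to 18363 CPM in MCF10A IR. It ran from 715 to 776 CPM in HCT116 NIR, with TP63 at 0 counts, and from 1261 to 1462 CPM in HCT116 IR. Mixed libraries, labelled as 50-50, had 695 to 794 CPM without and 1495 to 1752 CPM with irradiation, and so lay at or just above HCT116 alone and far below MCF10A. Of 10 colorectal markers, CDX1, ASCL2 and TFF3 were at 0 counts in both HCT116 groups, and the summed level was 47.3 to 55.1 CPM in HCT116 NIR against 16.2 to 19.7 CPM in MCF10A NIR. EPHB2 made up most of both sums, with means of 38.4 CPM in HCT116 NIR and 18.2 CPM in MCF10A NIR. CDX2 averaged 10.0 CPM in HCT116 NIR and was at 0 counts in MCF10A NIR.

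The members lie on 6 chromosomes in GRCh38 (GENCODE 29). CDKN1A spans chr6:36676460-36687339 on the plus strand, CDKN1B chr12:12715058-12722371 on the plus strand, CDKN1C chr11:2883213-2885773 on the minus strand and CDKN2C chr1:50960745-50974633 on the plus strand. CDKN2D spans chr19:10566462-10569059 on the minus strand. CDKN2A (chr9:21967753-21995301) and CDKN2B (chr9:22002903-22009363) are neighbours on the minus strand of chromosome 9. Promoter sequences from RefSeq (GRCh38.p14) were found for 6 of the 7 members, in 9 windows of 250 bases before an annotated start. Only the longest run outside annotated exons is printed for a window. The CDKN1B window, where that run was 6 bases, is left out, as are those of the other CDKN2A and CDKN2C starts. The stretches below set the promoter of CDKN1A, which rose after irradiation in all cultures, beside those of 4 INK4 genes. Each is given 5′ to 3′ on the gene's strand, with the GC box (GGGCGG, or CCGCCC on the other strand, a site known to be bound by SP1) in capitals. The CDKN2A stretch is that of the upstream start, which serves ARF.

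CDKN1A, chr6:36678560-36678657, plus strand: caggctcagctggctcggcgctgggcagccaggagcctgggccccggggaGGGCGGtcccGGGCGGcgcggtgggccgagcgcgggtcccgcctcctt

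CDKN2A, chr9:21995325-21995481, minus strand: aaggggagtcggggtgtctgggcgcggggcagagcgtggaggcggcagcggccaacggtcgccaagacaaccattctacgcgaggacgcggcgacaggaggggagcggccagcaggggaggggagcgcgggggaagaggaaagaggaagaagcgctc

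CDKN2B, chr9:22009364-22009555, minus strand: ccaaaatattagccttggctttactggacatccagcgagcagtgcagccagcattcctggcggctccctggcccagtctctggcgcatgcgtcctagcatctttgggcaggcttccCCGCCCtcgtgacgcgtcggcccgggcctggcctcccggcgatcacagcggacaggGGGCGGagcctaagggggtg

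CDKN2C, chr1:50960495-50960744, plus strand: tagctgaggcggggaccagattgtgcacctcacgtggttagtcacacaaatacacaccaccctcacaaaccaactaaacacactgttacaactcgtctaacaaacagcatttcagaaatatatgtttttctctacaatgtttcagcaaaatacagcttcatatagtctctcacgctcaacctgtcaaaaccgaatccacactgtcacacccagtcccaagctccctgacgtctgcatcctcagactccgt

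CDKN2D, chr19:10569060-10569229, minus strand: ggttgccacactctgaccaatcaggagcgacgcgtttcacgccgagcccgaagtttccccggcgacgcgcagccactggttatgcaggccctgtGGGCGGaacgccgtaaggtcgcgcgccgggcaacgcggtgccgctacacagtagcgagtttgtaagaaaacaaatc

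The printed stretches of CDKN1A and CDKN2B hold 2 GC boxes each, that of CDKN2D holds 1, and those of CDKN2A and CDKN2C hold none. Over whole windows, 7 of the 9 held a GC box, against 42.6% of 35116 RefSeq windows of the same length. The whole CDKN1A and CDKN2D windows held 4 and 2. The windows of the other CDKN2A start and the other CDKN2C starts, which lie mostly or wholly in exons, held 1 for CDKN2A and 5 and 1 for CDKN2C. GC content was 76.4% in the CDKN1A window and 45.6% in the printed CDKN2C window, and CDKN2C has other annotated starts whose windows lie inside its exons. These matches describe the letters of the reference and show no binding.

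In each type of culture, 10 Gy raised CDKN1A and lowered most of the other inhibitor transcripts that could be measured. CDKN1A rose 3.39-fold in MCF10A, 5.04-fold in HCT116 and 4.57-fold in mixed cultures. CDKN1B and CDKN2C fell in all 3 and CDKN1C fell most in HCT116, while CDKN2B did not pass the test anywhere. In MCF10A, 5 of the 7 members had enough counts to be tested, of which 1 rose, 3 fell and 1 did not pass, where 55.4% of the 15154 genes tested were called, 26.2% higher and 29.2% lower. In HCT116, 1 rose, 5 fell and 1 did not pass, against 52.5% of all tested genes called, 25.3% higher and 27.2% lower. In mixed cultures the count was again 1, 5 and 1, against 49.4% called, 24% higher and 25.4% lower. In bulk RNA, fewer cells expressing a gene and less of its RNA per cell cannot be told apart.

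**Figure D1:**
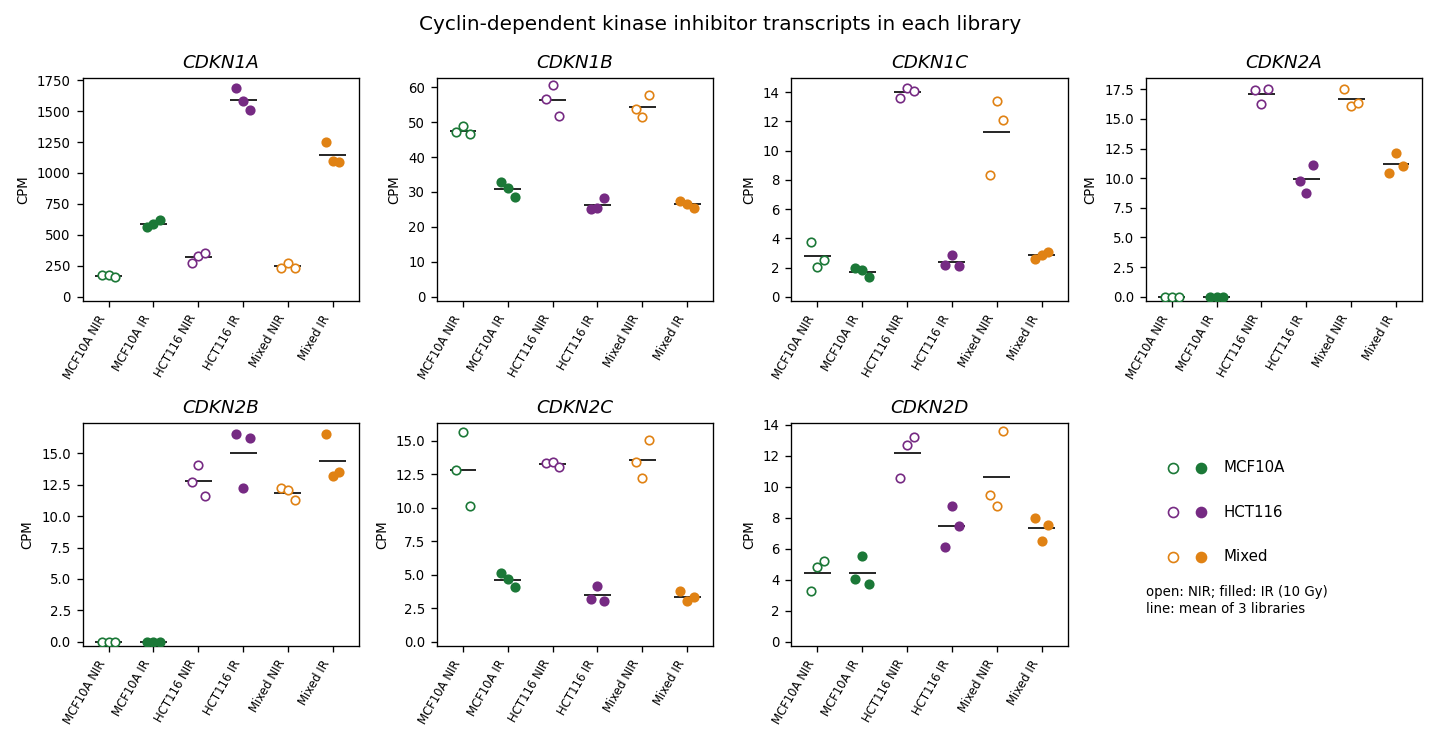
Level of each of the 7 inhibitor transcripts in each library in CPM (linear axes from 0, each with its own scale), with open points for NIR, filled points for IR and a line at the mean of 3 libraries. CDKN1A is higher in every IR library than in every NIR library of the same culture, and CDKN2A and CDKN2B sit at 0 in all 6 MCF10A libraries.

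CDKN1A, which encodes p21, the inhibitor best known for arrest after DNA damage, stood at 178, 177 and 160 CPM in MCF10A NIR and at 567, 585 and 619 CPM in MCF10A IR. HCT116 libraries held 275, 326 and 352 CPM before and 1688, 1585 and 1508 CPM after irradiation. Mixed libraries held 233, 270 and 235 CPM before and 1251, 1096 and 1090 CPM after. The IR and NIR libraries did not overlap in any culture, and the lowest irradiated HCT116 library lay above the highest irradiated mixed library. The log2 fold change was 1.76 (SE 0.047, adjusted p = 1.1e-21) in MCF10A, 2.33 (SE 0.075, adjusted p = 5e-17) in HCT116 and 2.19 (SE 0.069, adjusted p = 9e-16) in mixed cultures. MDM2, a ubiquitin ligase gene known to be induced by DNA damage, rose by 0.98 (SE 0.042, adjusted p = 2.9e-17) in MCF10A and by 1.41 (SE 0.059, adjusted p = 5.2e-15) in HCT116 on the same scale. CDKN1A and MDM2 thus both rose in the line that the series text calls p53-null, and its p53 status was not tested. PANDAR, a noncoding RNA of the CDKN1A region, was listed at 0 counts in all 18 libraries, and CDKN1A exons overlap those of the antisense gene DINOL over 32 of 2509 bases.

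CDKN1B encodes p27, the inhibitor that holds quiescent cells out of the cycle. Its transcript was at 47.2, 48.8 and 46.5 CPM in MCF10A NIR and 33.0, 31.2 and 28.6 CPM in MCF10A IR. HCT116 fell from 56.5, 60.8 and 51.7 CPM to 25.2, 25.5 and 28.3 CPM, and mixed cultures from 53.9, 51.4 and 57.8 CPM to 27.5, 26.6 and 25.4 CPM. No IR library overlapped a NIR library of its culture. The log2 change was −0.64 (SE 0.072, adjusted p = 1.2e-08) in MCF10A, −1.09 (SE 0.083, adjusted p = 1.3e-10) in HCT116 and −1.06 (SE 0.076, adjusted p = 2.1e-10) in mixed cultures. CDKN1B thus moved opposite to CDKN1A in every culture.

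CDKN1C encodes p57, an imprinted inhibitor known from embryonic growth control. It stood at 13.6, 14.3 and 14.0 CPM in HCT116 NIR and 2.19, 2.84 and 2.14 CPM in HCT116 IR, a log2 change of −2.52 (SE 0.159, adjusted p = 5.5e-12). That was the strongest fall of any member in any culture. Mixed cultures held 8.30, 13.4 and 12.1 CPM before and 2.61, 2.83 and 3.04 CPM after, a change of −2.02 (SE 0.179, adjusted p = 6.2e-09). MCF10A began lower, at 3.76, 2.03 and 2.53 CPM, and ended at 1.98, 1.82 and 1.35 CPM, a change of −0.72 (SE 0.284, adjusted p = 0.034). The MCF10A call was lost with upper-quartile scaling (adjusted p = 0.062) and with DESeq2 (adjusted p = 0.082). It was also lost without MCF10A NIR replicate 1 (−0.43, adjusted p = 0.27) or without MCF10A IR replicate 3 (−0.56, adjusted p = 0.14).

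KCNQ1OT1, the imprinted antisense RNA known to silence CDKN1C on the paternal chromosome, rose by 0.87 (SE 0.101, adjusted p = 2.4e-08) in MCF10A, 0.37 (SE 0.101, adjusted p = 0.0035) in HCT116 and 0.58 (SE 0.109, adjusted p = 0.00014) in mixed cultures on the log2 scale. PHLDA2, an imprinted neighbour known to limit placental growth, rose by 0.57 (SE 0.095, adjusted p = 8.6e-06) in MCF10A, whereas its change of 0.10 (SE 0.101) in HCT116 did not pass (adjusted p = 0.41). KCNQ1, a potassium channel gene, fell by 0.69 (SE 0.179, adjusted p = 0.0025) in HCT116 and was near 0 in MCF10A, at 0.0098 CPM without and 0.117 CPM with irradiation. The strand setting of the read counting is not given in the sources used here, so KCNQ1 and KCNQ1OT1, which overlap on opposite strands, may share reads.

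Among INK4 genes, CDKN2A had 0 counts in all 6 MCF10A libraries. A count of 0 allows up to 0.0304 CPM in MCF10A NIR and 0.0338 CPM in MCF10A IR (3 counts over the 3 libraries, counting error only). HCT116 NIR held 17.4, 16.3 and 17.5 CPM and HCT116 IR 9.78, 8.79 and 11.2 CPM, without overlap. That was a log2 change of −0.78 (SE 0.119, adjusted p = 6.9e-06), so the transcript fell in irradiated HCT116. Mixed cultures fell from 17.5, 16.1 and 16.3 CPM to 10.5, 12.1 and 11.0 CPM, a change of −0.60 (SE 0.107, adjusted p = 8.4e-05). Counts per symbol do not separate the p16 and ARF transcripts, and 341 of the 3157 exonic bases of CDKN2A overlap exons of CDKN2B-AS1 on the other strand.

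CDKN2B encodes p15, the INK4 protein known as a target of TGF-beta signalling. It too had 0 counts in all 6 MCF10A libraries. HCT116 held 12.7, 14.1 and 11.6 CPM before and 16.5, 12.2 and 16.2 CPM after irradiation, and these overlapped. Its change of 0.23 (SE 0.128) in HCT116 did not pass (adjusted p = 0.14), but without HCT116 IR replicate 2, the lowest irradiated library, it was 0.36 with adjusted p = 0.024. Mixed cultures held 12.2, 12.1 and 11.3 CPM before and 16.5, 13.2 and 13.5 CPM after, without overlap, and the change of 0.26 (SE 0.117) did not pass either (adjusted p = 0.075). With upper-quartile scaling the mixed change was 0.29 and passed (adjusted p = 0.043). CDKN2B was the one member other than CDKN1A whose mean was higher after irradiation in HCT116, next to a CDKN2A gene that fell.

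CDKN2B-AS1 (ANRIL), the antisense RNA that runs across this locus and is known to recruit Polycomb proteins, was also at 0 counts in all MCF10A libraries. In HCT116 it held 8.10, 5.25 and 7.89 CPM before and 3.81, 3.31 and 4.66 CPM after irradiation, a log2 change of −0.85 (SE 0.196, adjusted p = 0.00078). Mixed cultures changed by −0.84 (SE 0.163, adjusted p = 0.0002). MTAP, the methionine salvage enzyme gene that lies 30.1 kb from CDKN2A, was at 0.265, 0.169 and 0.171 CPM in MCF10A NIR and 267, 257 and 245 CPM in HCT116 NIR. After irradiation MTAP was at 0.955, 0.766 and 0.294 CPM in MCF10A and 199, 206 and 217 CPM in HCT116. KLHL9 and FOCAD, farther along on the same side, were transcribed in both lines: KLHL9 averaged 34.6 CPM in MCF10A NIR and 75.6 CPM in HCT116 NIR, and FOCAD 41.2 and 78.6 CPM. DMRTA1, 437 kb away on the other side, averaged 0.636 CPM in MCF10A NIR and 0.0676 CPM in HCT116 NIR. The stretch with 0 counts in MCF10A thus held CDKN2A, CDKN2B and CDKN2B-AS1, with MTAP near 0 beside them. MCF10A is known, as background, to have lost a part of chromosome 9 that includes CDKN2A and CDKN2B, and DNA was not measured here.

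**Figure D2:**
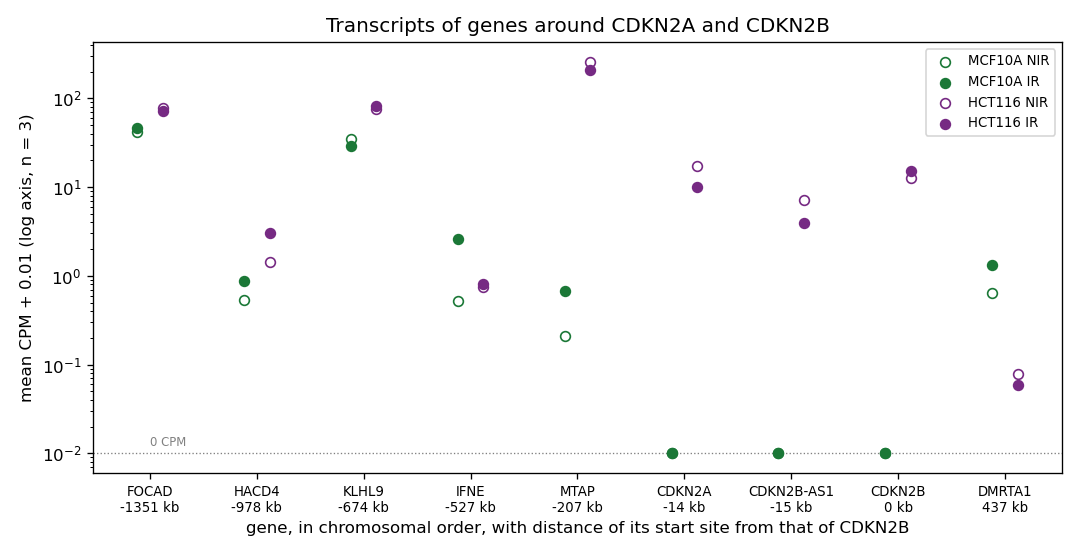
Mean level (CPM plus 0.01, log axis, n = 3) of 9 genes around CDKN2A and CDKN2B in chromosomal order in the 4 monoculture groups, with the distance of each start site from that of CDKN2B under its name. CDKN2A, CDKN2B and CDKN2B-AS1 lie on the 0 CPM line in MCF10A and between 3.93 and 17.1 CPM in HCT116, while KLHL9 and FOCAD are at 29.1 CPM or more in both lines.

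CDKN2C encodes p18, the INK4 protein whose transcript is known to follow cell cycle entry. In MCF10A it fell from 12.8, 15.7 and 10.1 CPM to 5.11, 4.71 and 4.12 CPM, and in HCT116 from 13.3, 13.4 and 13.0 CPM to 3.20, 4.14 and 3.03 CPM. Mixed cultures went from 13.4, 12.3 and 15.0 CPM to 3.77, 3.05 and 3.31 CPM. No groups overlapped, and the log2 changes were −1.50 (SE 0.155, adjusted p = 3e-09), −1.92 (SE 0.154, adjusted p = 3.5e-10) and −2.03 (SE 0.147, adjusted p = 2.6e-10) in that order. In MCF10A this was the strongest fall among the 5 tested members.

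CDKN2D encodes p19, the remaining INK4 protein. In MCF10A its 3.29, 4.85 and 5.19 CPM before and 4.04, 5.54 and 3.70 CPM after irradiation overlapped, and the change of −0.03 (SE 0.206) did not pass (adjusted p = 0.92). HCT116 went from 10.6, 12.7 and 13.2 CPM to 6.09, 8.77 and 7.46 CPM without overlap, a log2 change of −0.69 (SE 0.149, adjusted p = 0.0004). Mixed cultures went from 9.48, 8.74 and 13.6 CPM to 7.96, 6.50 and 7.51 CPM, a change of −0.56 (SE 0.158, adjusted p = 0.0055). The mixed call was lost without Mixed NIR replicate 3, the highest library (−0.35, adjusted p = 0.066).

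**Figure D3:**
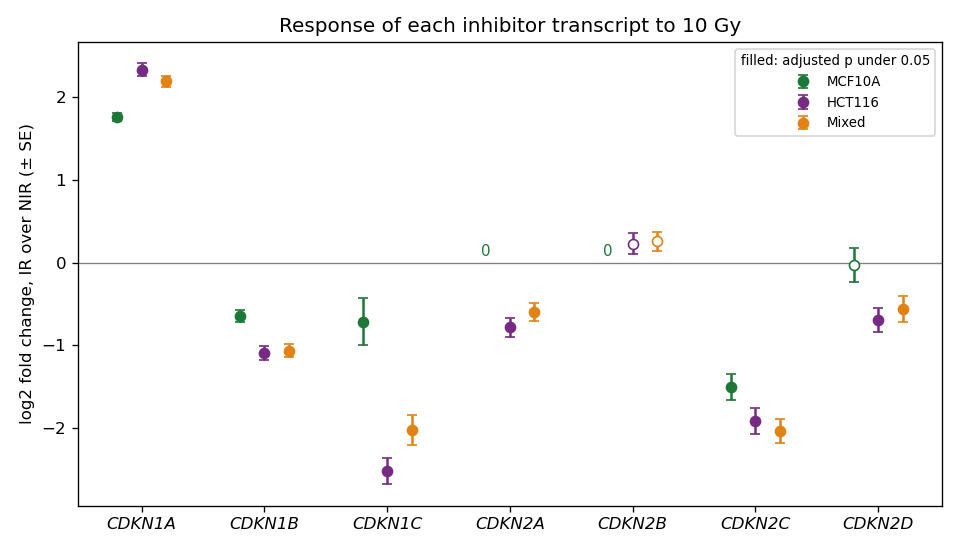
Log2 fold change of each inhibitor transcript, IR over NIR, with its standard error, in MCF10A, HCT116 and mixed cultures. Filled points had an adjusted p under 0.05 and a 0 marks genes with no counts in MCF10A, and CDKN1A is the only member with filled points above the zero line.

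Per kilobase of merged exon, CDKN1A had the highest level of the family in every group, from 68.5 CPM per kb in MCF10A NIR to 635 CPM per kb in HCT116 IR. CDKN1B came next, between 9.91 CPM per kb in HCT116 IR and 21.2 CPM per kb in HCT116 NIR. In MCF10A NIR the others followed as CDKN2C (3.87), CDKN2D (2.96) and CDKN1C (1.43 CPM per kb), with CDKN2A and CDKN2B at 0. In HCT116 NIR the order was CDKN2D (8.09), CDKN1C (7.19), CDKN2A (5.40), CDKN2C (3.99) and CDKN2B (3.17 CPM per kb). In HCT116 IR it was CDKN2D (4.95), CDKN2B (3.72), CDKN2A (3.14), CDKN1C (1.23) and CDKN2C (1.04 CPM per kb). Merged exon lengths stand in for the transcripts in use, which the tables do not give, so close neighbours in these orders are not resolved.

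Without irradiation, 5 of the 7 members were higher in HCT116 than in MCF10A and none was lower, where 74.8% of 16568 genes tested were called, 38.7% higher and 36.1% lower. CDKN2A was at least 562-fold and CDKN2B at least 421-fold higher in HCT116, both computed against 3 counts over the MCF10A libraries. If read mates were counted one by one, as mostly even low counts would allow, these bounds become 281-fold and 211-fold. CDKN1C was 2.13 higher on the log2 scale (SE 0.190, adjusted p = 1.2e-08), CDKN2D 1.25 (SE 0.179, adjusted p = 5.2e-06) and CDKN1A 0.69 (SE 0.077, adjusted p = 2.6e-07). Libraries of CDKN1C, CDKN2D and CDKN1A did not overlap between lines, a separation that was not counted over all genes. CDKN1B differed by 0.05 (SE 0.072) and did not pass (adjusted p = 0.57), although its libraries did not overlap in CPM. The median over all genes was 0.05 and moved to 0.25 with upper-quartile or library-size scaling, and CDKN1B then passed at 0.25 (adjusted p = 0.0046 and 0.0054). CDKN2C differed by −0.16 (SE 0.143, adjusted p = 0.32), and by −0.32 (adjusted p = 0.040) without MCF10A NIR replicate 3.

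After irradiation, 4 members were higher in HCT116, 2 were lower and 1 did not pass, where 74.9% of 16932 genes tested were called, 38.1% higher and 36.8% lower. CDKN1A was 1.20 higher on the log2 scale (SE 0.050, adjusted p = 1.4e-17), with no HCT116 library below 1508 CPM and no MCF10A library above 619 CPM. CDKN2A was at least 293-fold and CDKN2B at least 443-fold higher, or 146-fold and 221-fold with counts halved. CDKN2D was 0.53 higher (SE 0.189, adjusted p = 0.015), a call lost without MCF10A IR replicate 1, without MCF10A IR replicate 3 or without HCT116 IR replicate 2. CDKN1B was lower in HCT116 by 0.46 (SE 0.086, adjusted p = 3.3e-05) and CDKN2C by 0.64 (SE 0.208, adjusted p = 0.0077). The CDKN2C call was lost with upper-quartile scaling (−0.46, adjusted p = 0.05) and library-size scaling (−0.41, adjusted p = 0.075), under which the median over all genes moved from 0.04 to 0.22 and 0.27. CDKN1C, 2.13 apart before irradiation, differed by 0.26 (SE 0.295) afterwards and did not pass (adjusted p = 0.43).

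The responses of the lines were compared by the interaction of line and irradiation, for which 37.3% of 18179 genes tested were called, 15.4% higher and 21.9% lower in HCT116. Of the 5 members with counts in both lines, 1 differed upwards, 3 downwards and 1 did not pass. CDKN1A rose more in HCT116, by 0.50 on the log2 scale (SE 0.098, adjusted p = 0.00023). CDKN1C fell more in HCT116, with a difference of −1.88 (SE 0.312, adjusted p = 2.8e-05), as did CDKN1B, with −0.53 (SE 0.109, adjusted p = 0.00037). CDKN2D differed by −0.75 (SE 0.269, adjusted p = 0.031), a call lost when all 18 libraries were fitted together (−0.65, adjusted p = 0.067), without mitochondrial and the 10 most abundant genes (−0.64, adjusted p = 0.063) and when any 1 of 7 of the 12 libraries was left out. CDKN2C differed by −0.49 (SE 0.233) and did not pass (adjusted p = 0.10), but did without MCF10A NIR replicate 2 (−0.67, adjusted p = 0.027). The median over all genes was −0.10. CDKN2A and CDKN2B have no comparison of responses because both MCF10A groups were at 0.

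In mixed cultures, levels of the members without counts in MCF10A were near those of HCT116 alone. CDKN2A was at 97.6% ± 4.49 (SD, n = 3) of the HCT116 mean without irradiation and 112.9% ± 8.50 with it, and CDKN2B at 92.6% ± 4.02 and 96.1% ± 12.3. Of their neighbours, MTAP was at 93.4% ± 5.35 and 104.2% ± 6.15, and CDKN2B-AS1 at 120.6% ± 15.2 and 123.8% ± 22.4. These SDs leave out the spread of the HCT116 libraries and cover only the mixed libraries. The stated mixture was 50%, and the basal marker sums of these libraries were likewise close to those of HCT116. Against HCT116 alone without irradiation, CDKN1A was lower and the other 6 did not pass, where 2.04% of 16455 genes tested were called, 1.15% lower and 0.887% higher. The CDKN1A difference was −0.35 (SE 0.084, adjusted p = 0.031), or 77.5% ± 6.59 (SD, n = 3) of the HCT116 mean. It was lost when any of 4 of the 6 libraries was left out: HCT116 NIR replicate 2 or 3, or Mixed NIR replicate 1 or 3.

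After irradiation CDKN1A was again the only member to differ from HCT116 alone, where 8.56% of 17137 genes tested were called, 3.48% lower and 5.08% higher. Its mixed libraries stood at 71.9% ± 5.74 (SD, n = 3) of the HCT116 mean, a log2 difference of −0.49 (SE 0.052, adjusted p = 7e-08). The other 6 members differed by −0.06 to 0.22 and did not pass. CDKN1C, for example, differed by 0.22 (SE 0.234, adjusted p = 0.66). None of the 7 responses differed between mixed and HCT116 cultures by the interaction test, for which 0.83% of 18072 genes were called, 0.681% higher and 0.149% lower, and these comparisons share the HCT116 libraries. For CDKN1A that difference was −0.13 (SE 0.110, adjusted p = 0.69), and for CDKN1C 0.51 (SE 0.241, adjusted p = 0.38). Mixed and MCF10A cultures were not tested against each other, and the part of any MCF10A RNA in the lower CDKN1A level was not tested.

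**Figure D4:**
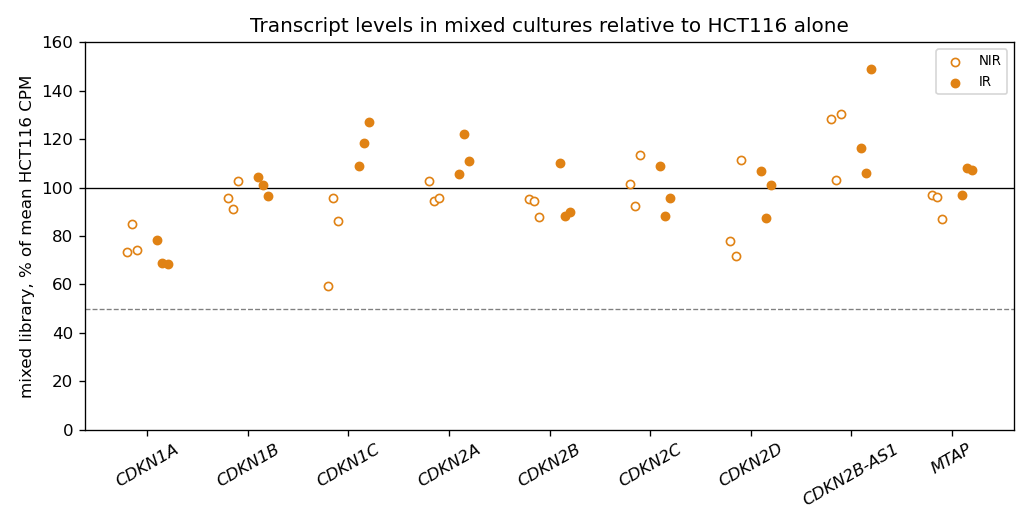
Level in each mixed library as a percentage of the mean HCT116 level of the same treatment for the 7 members, CDKN2B-AS1 and MTAP, with open points for NIR, filled points for IR, a solid line at 100% and a dashed line at the stated 50%. CDKN1A points lie below the solid line in all 6 libraries, around means of 77.5% and 71.9%, and no point lies at or below 50%.

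Genes around the inhibitors were read from 5 lists written from general knowledge. Beside their counts stand the shares over all genes tested: 26.2% rose and 29.2% fell in MCF10A, 25.3% and 27.2% in HCT116, and 24% and 25.4% in mixed cultures. Of the cyclins and CDKs that the inhibitors restrain, 3 rose and 8 fell of 12 tested in MCF10A (median log2 change −0.80, against 0.0035 over all genes). In HCT116, 4 rose and 7 fell of 11 (median −0.62, against 0.0072), and in mixed cultures again 4 and 7 of 11 (median −0.59, against 0.012). The share that rose was near that of all genes in MCF10A, and the share that fell was above it in each culture. CCNA2, the cyclin of S phase and G2, fell by 1.66 (SE 0.055, adjusted p = 1.1e-19) in MCF10A, 1.51 (SE 0.064, adjusted p = 6.4e-15) in HCT116 and 1.46 (SE 0.072, adjusted p = 8.2e-13) in mixed cultures on the log2 scale. The mitotic cyclin gene CCNB2 fell by 1.53 (SE 0.062, adjusted p = 9.5e-18) in MCF10A and 1.43 (SE 0.073, adjusted p = 1.5e-13) in HCT116. CCND1, the D-type cyclin that pairs with CDK4 and CDK6, rose from 492, 491 and 510 CPM to 1905, 1865 and 1812 CPM in HCT116, a log2 change of 1.91 (SE 0.054, adjusted p = 6.8e-18). CCND1 was called higher in MCF10A and mixed cultures too. CDK6, a target of the INK4 proteins, rose by 0.24 (SE 0.039, adjusted p = 7.1e-06) in MCF10A and by 1.13 (SE 0.060, adjusted p = 2.6e-13) in HCT116, while CDK4 fell by 0.97 (SE 0.075, adjusted p = 1e-11) and 0.37 (SE 0.067, adjusted p = 7.8e-05). CDK4, CDK6 and CCND2 were chosen after their values were seen. The cyclin D2 gene CCND2, which rose in MCF10A by 1.28 (SE 0.120, adjusted p = 4.3e-10), was at 0 counts in both HCT116 groups and was not tested there.

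Of 10 RB and E2F genes, none rose and 8 fell in MCF10A (median −0.46), 1 rose and 6 fell in HCT116 (median −0.41), and 1 rose and 7 fell in mixed cultures (median −0.51), where 29.2%, 27.2% and 25.4% of all genes fell. E2F1, an activator of S phase genes, fell by 1.35 (SE 0.096, adjusted p = 1.5e-12) in MCF10A, 1.47 (SE 0.092, adjusted p = 5.1e-12) in HCT116 and 1.26 (SE 0.082, adjusted p = 4.7e-11) in mixed cultures. E2F8, a late repressor of the family, fell by 2.00 (SE 0.166, adjusted p = 4e-11) in MCF10A and 1.37 (SE 0.098, adjusted p = 5.2e-11) in HCT116. Of 10 genes for ubiquitin ligase subunits that act on CIP/KIP proteins, 1 rose and 7 fell in MCF10A (median −0.33), 3 rose and 6 fell in HCT116 (median −0.39), and 2 rose and 6 fell in mixed cultures (median −0.44). The 3 of 10 that rose in HCT116 were near the 25.3% of all genes that did. Those that fell included CKS1B, the cofactor of SKP2 in CDKN1B turnover, by 1.33 (SE 0.056, adjusted p = 1.6e-17) in MCF10A and 0.81 (SE 0.078, adjusted p = 7.5e-09) in HCT116. DTL, the adaptor that marks CDKN1A protein for turnover, fell by 1.19 (SE 0.051, adjusted p = 2.8e-17) in MCF10A and 1.35 (SE 0.074, adjusted p = 5.2e-13) in HCT116.

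Of 8 chromatin regulators of the INK4 locus, 2 rose and 5 fell in MCF10A (median −0.37), 1 rose and 4 fell in HCT116 (median −0.27), and 1 rose and 5 fell in mixed cultures (median −0.34). In a list of 8, the 2 that rose in MCF10A were near the 26.2% of all genes that did, and the 4 that fell in HCT116 stood against 27.2%. EZH2, the Polycomb methyltransferase, fell by 1.32 (SE 0.069, adjusted p = 2.4e-15) in MCF10A, 1.42 (SE 0.073, adjusted p = 1.5e-13) in HCT116 and 1.38 (SE 0.060, adjusted p = 1.2e-13) in mixed cultures. BMI1, a Polycomb repressor of CDKN2A, fell by 0.90 (SE 0.083, adjusted p = 3.3e-09) in HCT116 and 0.81 (SE 0.070, adjusted p = 4.6e-09) in mixed cultures. It was called lower in MCF10A too. KDM6B, a demethylase known to remove the Polycomb mark, rose by 0.77 (SE 0.079, adjusted p = 2.4e-09) in MCF10A. It was called higher in mixed cultures and in HCT116 too, where its mean went from 45.8 to 62.6 CPM.

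Of the transcription factors known to act on members, 3 rose and 7 fell of 15 in MCF10A (median −0.15), 4 rose and 8 fell of 14 in HCT116 (median −0.31), and 3 rose and 6 fell of 15 in mixed cultures (median −0.07), against medians over all genes of 0.0035, 0.0072 and 0.012. In MCF10A and mixed cultures the shares that rose, 3 of 15 each, were near the 26.2% and 24% of all genes. KLF4, known to activate CDKN1A, averaged 3.50 CPM before and 6.70 CPM after irradiation in MCF10A, a rise of 0.91 (SE 0.190, adjusted p = 0.00017). In HCT116 it fell by 0.93 (SE 0.096, adjusted p = 2.4e-08), to a mean of 16.0 CPM from 30.7 CPM. The interaction for KLF4 was −1.92 (SE 0.204, adjusted p = 3.9e-08), and any part of KLF4 in the CDKN1A responses was not tested. SP1, whose GC box is marked in the printed promoters, fell by 0.65 (SE 0.056, adjusted p = 1.1e-09) in HCT116 and 0.67 (SE 0.060, adjusted p = 7.3e-09) in mixed cultures, and was called lower in MCF10A too. TP63 rose by 1.15 (SE 0.349, adjusted p = 0.0092) in mixed cultures, from 0.882 to 1.97 CPM, against 109 CPM in MCF10A NIR, and was called higher after irradiation in MCF10A too.

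**Figure D5:**
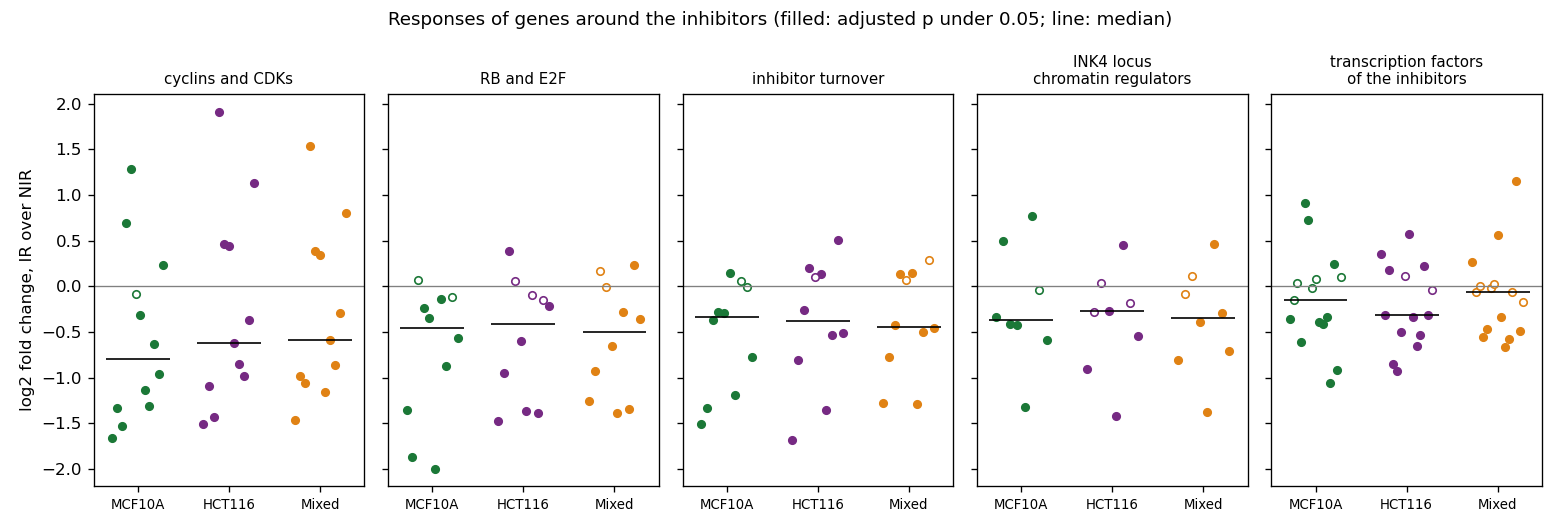
Log2 fold change, IR over NIR, of every tested gene of the 5 lists in MCF10A, HCT116 and mixed cultures, with filled points for an adjusted p under 0.05 and a line at the median. Medians lie below 0 in every list and culture, from −0.80 for cyclins and CDKs in MCF10A to −0.07 for transcription factors in mixed cultures.

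Genes whose levels were most like each member over the 18 libraries were ranked by Pearson's r of log2(CPM + 1), as a description, since libraries of one group share their line and treatment. For CDKN1A they were DRAM1 (0.985), CYSRT1 (0.984) and HHAT (0.981). DRAM1, known as a damage-regulated autophagy gene, averaged 26.7 CPM in MCF10A NIR, 44.1 CPM in MCF10A IR, 32.3 CPM in HCT116 NIR and 85.0 CPM in HCT116 IR. For CDKN1B they were CLK2 (0.986), CNTRL (0.986) and ENO1 (0.977), and for CDKN1C they were TMEM107 (0.970), SREBF1 (0.966) and ZNF333 (0.962). CDKN2C was most like LONRF1 (0.983), H2AZ1 (0.981) and SMC3 (0.977). H2AZ1, a histone variant gene, averaged 377.5 CPM in MCF10A NIR, 151.7 CPM in MCF10A IR, 341.1 CPM in HCT116 NIR and 121.8 CPM in HCT116 IR. CDKN2D was most like ALDOC (0.948), ZNF292 (0.946) and PSD3 (0.941). The values for CDKN2A (KIF26A 0.999, ITPRID2 0.999 and MUC3A 0.998) and CDKN2B (RGL3, NOTCH3 and SLC17A9, each 0.998) rest mainly on the gap between MCF10A and the other libraries.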

How the data were processed

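Polyadenylated RNA was measured by stranded, paired-end sequencing in 18 libraries (6 groups of 3). The authors deposited 1 table of raw counts per gene symbol for each library, and the submitters' processing notes name fastp, STAR, featureCounts and GRCh38, while their settings are not given in the sources used here. Of the values from 1 to 10, 68.3% were even, so counting error was not taken from the counts alone. Genes were tested in edgeR 4.0.16 (R 4.3.3) with TMM scaling, the filterByExpr filter and the 2-sided quasi-likelihood test on the compared groups, after a check on simulated data. Benjamini-Hochberg adjustment covered all genes tested, and an adjusted p under 0.05 was called a rise or a fall. Standard errors are the size of the log2 fold change over the square root of F. The members, lists and alternatives were chosen with earlier results of these data known. All 7 members were reported, with up to 3 called genes of largest change per list and the 3 genes most like each member, among genes of at least 5 CPM on average. An item that this rule named is not reported here. Positions and exon lengths came from GENCODE 29. Alternatives were upper-quartile and library-size scaling, DESeq2 1.42.0, no count filter, halved counts, all 18 libraries in one fit, a replicate block, removal of mitochondrial and the 10 most abundant genes, and each library left out. P-values measure the spread between libraries labelled as biological replicates.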

Additional observations from a re-analysis of the deposited data

Results flagged for a closer look

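The 4 inhibitor transcripts below responded to 10 Gy by different amounts in HCT116 and MCF10A, by the interaction of line and irradiation in edgeR's quasi-likelihood test. CDKN1A rose by 0.50 more in HCT116 on the log2 scale (SE 0.098, adjusted p = 0.00023). CDKN1B differed by −0.53 (SE 0.109, adjusted p = 0.00037) and CDKN1C by −1.88 (SE 0.312, adjusted p = 2.8e-05), both towards a deeper fall in HCT116. CDKN2D differed by −0.75 (SE 0.269, adjusted p = 0.031), with a fall in HCT116 and a change of −0.03 in MCF10A that did not pass (adjusted p = 0.92). Before irradiation CDKN1C stood at 13.98 ± 0.354 CPM (SD, n = 3) in HCT116 and 2.77 ± 0.893 CPM in MCF10A. The CDKN2D call was lost when any 1 of 7 of the 12 libraries was left out. It was also lost without mitochondrial and the 10 most abundant genes, where the median over all genes moved from −0.10 to −0.0055. The lines also differed in medium, and the part of the medium in these differences was not tested.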

How the results depend on the processing

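Of 486 alternative fits of the 33 called results on members, 463 kept the call and its direction, 23 lost it and none reversed it, and 27 of the 33 were kept under every alternative. The calls lost somewhere were CDKN1C in MCF10A, CDKN2D in mixed cultures, CDKN2C and CDKN2D between irradiated lines, CDKN1A between non-irradiated mixed and HCT116 cultures, and the CDKN2D difference between lines. Members higher after irradiation numbered 1 to 2 in HCT116 with single libraries left out, 2 without HCT116 IR replicate 2, and 2 in mixed cultures with upper-quartile and with library-size scaling. Members lower in HCT116 than in MCF10A numbered 0 to 1 without irradiation (1 without MCF10A NIR replicate 3), and 1 after it with upper-quartile and with library-size scaling. Members lower in non-irradiated mixed cultures than in HCT116 numbered 0 to 1.

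Reversals were limited to changes that had not passed. CDKN2D in MCF10A became 0.056 with upper-quartile scaling and ran from −0.227 to 0.092 with single libraries left out. CDKN2C between non-irradiated lines became 0.043 with upper-quartile and 0.040 with library-size scaling, and CDKN1B there ran from −0.0062 to 0.089. Between irradiated mixed and HCT116 cultures, CDKN1B became −8.1e-05 without the most abundant genes, and leaving out libraries gave −0.030 to 0.050 for CDKN1B, −0.195 to 0.022 for CDKN2B, −0.144 to 0.106 for CDKN2C and −0.164 to 0.109 for CDKN2D. Without irradiation the ranges were −0.085 to 0.022 for CDKN1B, −0.055 to 0.0078 for CDKN2A and −0.034 to 0.119 for CDKN2C. For the difference in response between mixed and HCT116 cultures they were −0.039 to 0.064 for CDKN1B, −0.113 to 0.099 for CDKN2B, −0.224 to 0.037 for CDKN2C and −0.0048 to 0.342 for CDKN2D.

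The counts over all genes moved by over 1.5 times only in comparisons of mixed with HCT116 cultures. Without irradiation, 146 higher and 189 lower became 308 and 363 with no count filter, 490 higher with all 18 libraries together and 271 higher with DESeq2, and 68 to 144 higher and 77 to 181 lower with single libraries left out. After irradiation, 596 lower became 261 with all 18 libraries together, and leaving out libraries gave 567 to 800 higher (871 with all) and 299 to 537 lower. For the difference in response, 123 higher and 27 lower became 253 and 83 with no count filter and 117 lower with DESeq2, and ran from 48 to 137 and 12 to 60 with libraries left out. The share of calls that were higher moved from 47.4% to 57.5% in MCF10A with upper-quartile scaling, from 51.8% to 62.4% (upper-quartile) and 62.2% (library size) between non-irradiated lines and from 50.9% to 62.4% (library size) between irradiated lines. For the difference in response between lines it moved from 41.3% to 52.5% without the most abundant genes, 51.9% with no count filter, 51.8% with all 18 libraries together and 52.8% to 53.9% without any of the MCF10A IR libraries or HCT116 IR replicate 2. With all 18 libraries together it moved from 43.6% to 63.8% (non-irradiated) and from 59.4% to 80.5% (irradiated) between mixed and HCT116 cultures. For the difference in response between mixed and HCT116 cultures it moved from 82% to 60.7% with DESeq2 and to 68.7% to 71% without any 1 of 6 of the libraries.

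The replicate numbers showed no general pairing of the libraries. Residual correlations of same-numbered libraries lay between −0.043 and 0.109 over 15 pairs of groups, and 13 of 45 libraries correlated best with their own number. The highest value was between HCT116 NIR and Mixed NIR, where the range was 0.0051 to 0.109 and 2 of 3 libraries correlated best with their own number. With the replicate block, called genes between non-irradiated mixed and HCT116 cultures numbered 319 higher and 397 lower, and 957 were lower after irradiation. The block changed no call on a member. The counts behind CDKN1C in MCF10A were low, 274 over the 3 NIR and 150 over the 3 IR libraries.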
